A study of Drosophila melanogaster with 8 samples.

Results

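The nuclear-encoded subunits of the 5 oxidative phosphorylation complexes were followed in fly heads after a drug treatment. A clone was taken where its single annotated gene, renamed to its current symbol through its gene identifier, carried the ND-, SdhA to SdhD, UQCR, COX or ATPsyn family name, or was levy, RFeSP, Cyt-c1 or Cyt-c-p, and where the clone was measured on at least 2 arrays of each day. Of 13824 clones on the array, 7558 carried 1 gene name, 49 clones of 42 genes bore one of these symbols, and 37 clones of 33 genes were measured on enough arrays. RefSeq's Release 6 annotation lists 94 genes with such symbols, so most of the family was not analysed here, including RFeSP and Cyt-c-p. The 37 clones comprised 16 of complex I (14 genes), 4 of complex II (3 genes), 2 of complex III (2 genes), 5 of complex IV (5 genes) and 10 of complex V (9 genes). The 33 genes lie on every major chromosome arm, with 10 on 2L, 9 on 3R, 6 on 3L, 4 on 2R, 3 on X and 1 on chromosome 4. None is encoded by the mitochondrial genome.

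Complexes I to IV pass electrons from NADH and succinate through quinone and cytochrome c to oxygen and pump protons across the inner mitochondrial membrane, complex II being the member that pumps none. Complex V, the ATP synthase, lets the protons flow back and makes ATP. Neurons and photoreceptors draw heavily on this pathway, and fly mutants of several of its subunits lose coordination, show paralysis or lose neurons.

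The heads came from unmated males of the Oregon-R wild-type strain, and 8 two-colour cDNA arrays, 4 per harvest day, were hybridised. The males were 3 to 4 days old at the start. For the day-10 harvest they were fed 8 mg/ml pentylenetetrazole (PTZ, a convulsant that blocks GABA receptors) during 7 days, followed by 24 mg/ml vigabatrin (VGB, an antiepileptic drug that blocks GABA breakdown) during 3 days. For the day-14 harvest the same feeding was followed by normal food during 4 days. The control males had only normal food until the harvest of their own day. Vials began with 30 flies, and each array set its own pool of treated heads against its own parallel pool of control heads, so the days share no control sample. No group received PTZ alone, VGB alone or a wash-out without VGB, so the 2 drugs cannot be told apart. The tissue is the whole head, with brain, eyes, muscle, cuticle and fat body together. In such pooled tissue, fewer cells of a type and less RNA per cell cannot be told apart.

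Each value is a log2 ratio of treated over control heads for 1 clone on 1 array, the mean of its 2 neighbouring spots, after each array's median was subtracted (the centred ratio). A value of 0 therefore means the array's middle clone, not equal RNA. An array held values for 8419 to 20241 of 27648 spots, and 27 to 36 of the 37 clones. The direction was assumed, because the deposited ratios do not say which channel stands on top. They were read as Cy5 over Cy3, and the arrays with treated RNA in Cy3 (replicates 3 and 4 of each day) were turned. Before turning, the 12 pairs of arrays with the same dye orientation correlated across clones at r = 0.03 to 0.64. The 16 pairs of opposite orientation correlated at -0.25 to 0.14. A dye bias of single clones could give such values under either reading, so they do not settle the direction. Of the 37 clones, 29 clones of 26 genes were measured on at least 3 arrays of each day and in both orientations, and entered a limma fit of 4563 clones with a gene-specific dye term. A call is a Benjamini-Hochberg adjusted p under 0.05 over all 4563 clones.

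As a group the clones lay slightly under the array medians at day 10. Their median centred ratio was -0.15, -0.13, -0.15 and -0.18 on the 4 day-10 arrays, a mean of -0.15 ± 0.02 (SD, n = 4), or a ratio of 0.899. All 4 arrays agreed in sign and lay within a narrow band, in both dye orientations. With the median of neighbouring clones subtracted instead, the 4 medians were -0.05, -0.11, -0.31 and -0.10. Turned but not centred, they were -0.64, -0.48, -0.13 and -0.24. This turned, uncentred scale is called the deposited scale, or as deposited, from here on. The sign was the same on these scales, but the band was not narrow. At day 14 the median was 0.00, 0.00, -0.15 and -0.18, a mean of -0.08 ± 0.10 (SD, n = 4), or a ratio of 0.944. If the deposited ratios already ran as treated over control on every array, the mean would be 0.011 at day 10 and 0.0816 at day 14. On the turned ratios the day-14 arrays split by dye: those with treated RNA in Cy5 sat at 0, and those with treated RNA in Cy3 sat as low as at day 10. The fitted value was below 0 for 19 of the 29 tested clones (65.5%) at each day, where 48.9% of all tested clones were below 0 at day 10 and 52.1% at day 14. The median fitted value was -0.13 at day 10 and -0.08 at day 14, beside 0.01 and -0.01 over all tested clones. With the ratios read as already turned, 13 of the 29 clones were fitted below 0 at day 10 and 10 at day 14, with medians of 0.05 and 0.09, so the low position of the set holds only for the turned reading.

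**Figure D1:**
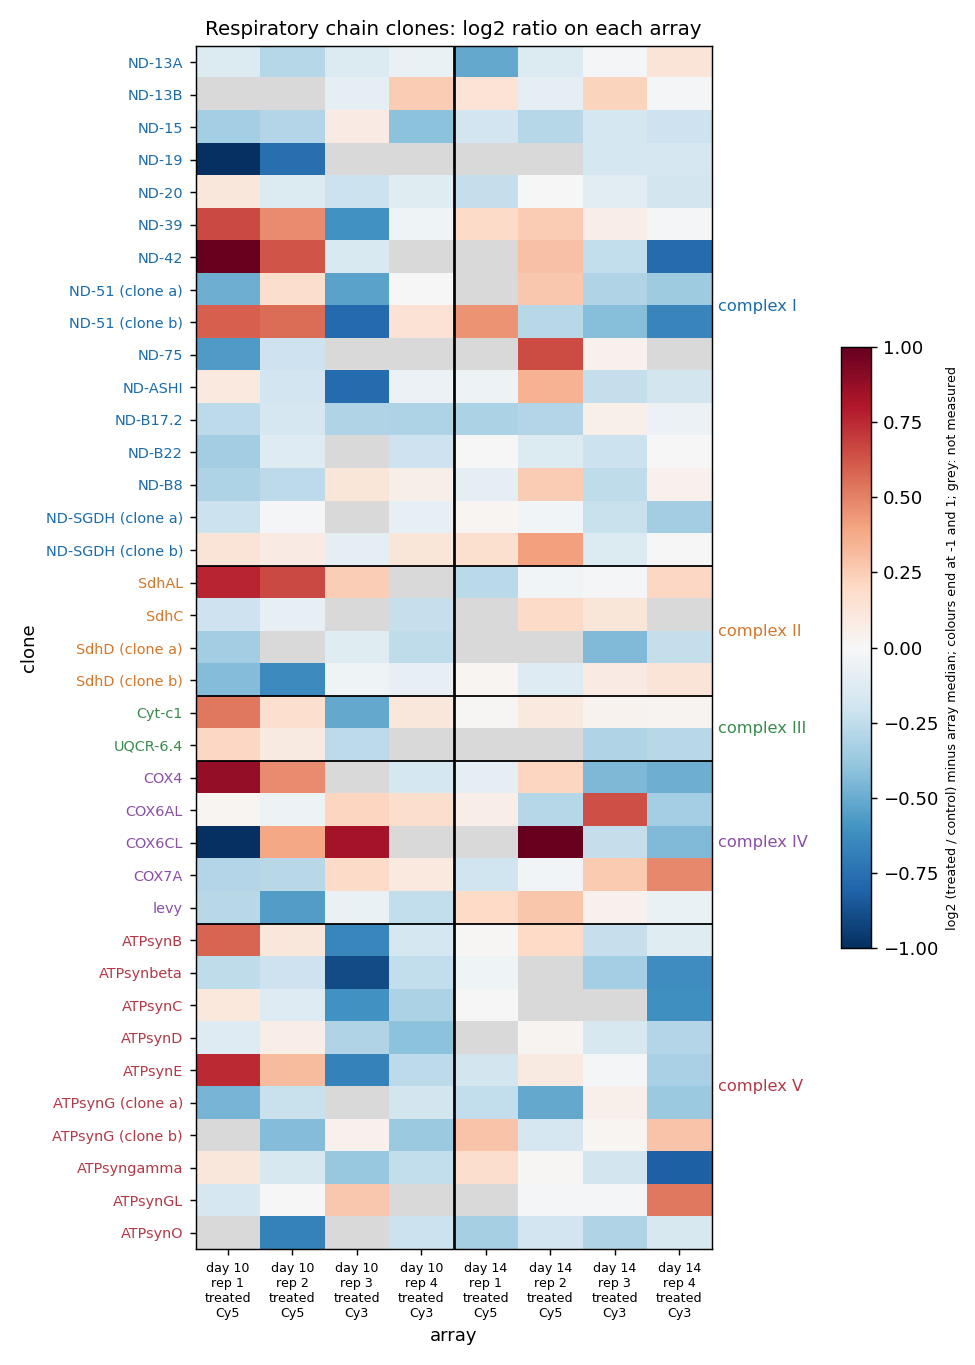
Centred log2 (treated / control) ratio of each of the 37 clones (rows, grouped by complex) on each of the 8 arrays (columns, day 10 left and day 14 right of the heavy line), in colour from -1 to 1 with values beyond at the end colours and grey for not measured. Complex V is blue for most clones on day-10 replicates 3 and 4, and ND-39, ND-42, COX4, ATPsynE and SdhAL are red on day-10 replicates 1 and 2.

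No single clone passed the test on the centred ratios. At day 10, 0 of the 29 clones were called lower and 0 higher by limma, where 2.19% of all tested clones were called lower (100 clones) and 0.833% higher (38 clones). At day 14 and for the difference between days, 0 of 29 were called in each direction, and so were 0% of all tested clones. At an unadjusted p under 0.05, 5 clones were lower at day 10 (ND-15, ND-B17.2, SdhD clone b, levy and ATPsynbeta; 17.2%, beside 10.7% of all tested clones) and 2 were higher (SdhAL and ND-42; 6.9%, beside 10.2%). At day 14, 1 clone was lower (ATPsynG clone a; 3.45%, beside 8.92%) and 0 were higher, beside 10.4% of all tested clones. The smallest adjusted p of any of these clones was 0.075 at day 10, 0.239 at day 14 and 0.411 for the difference between days. Standard errors ranged from 0.10 to 0.55 with a median of 0.13 at day 10, so shifts of the size of the group median could not be resolved clone by clone.

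Without the subtraction of array medians, more was called. On 2 of the day-10 arrays the turned, uncentred ratios as a whole lay low. Their array medians were -0.48 and -0.35 in replicates 1 and 2, beside 0.02 and -0.06 in replicates 3 and 4. In the fit on this deposited scale, 9 of the 29 clones were called lower at day 10 (31%), where 13.6% of all tested clones were (620 clones). There 0 were called higher, where 0.394% of all tested clones were. These 9 clones were ND-13A, ND-15, ND-ASHI and ND-B17.2 of complex I, SdhD clone b of complex II, levy of complex IV, and ATPsynbeta, ATPsynD and ATPsynG clone a of complex V. The whole tested set had a median fitted value of -0.21 on that scale, and the 29 clones -0.37. The distance between these medians was -0.16 on the deposited scale and -0.14 on the centred scale. The scales differ only by 1 constant per array, the same for all clones, so near-equal distances were given in advance. At day 14 and between days, 0 of 29 clones and 0% of all tested clones were called on the deposited scale.

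**Figure D2:**
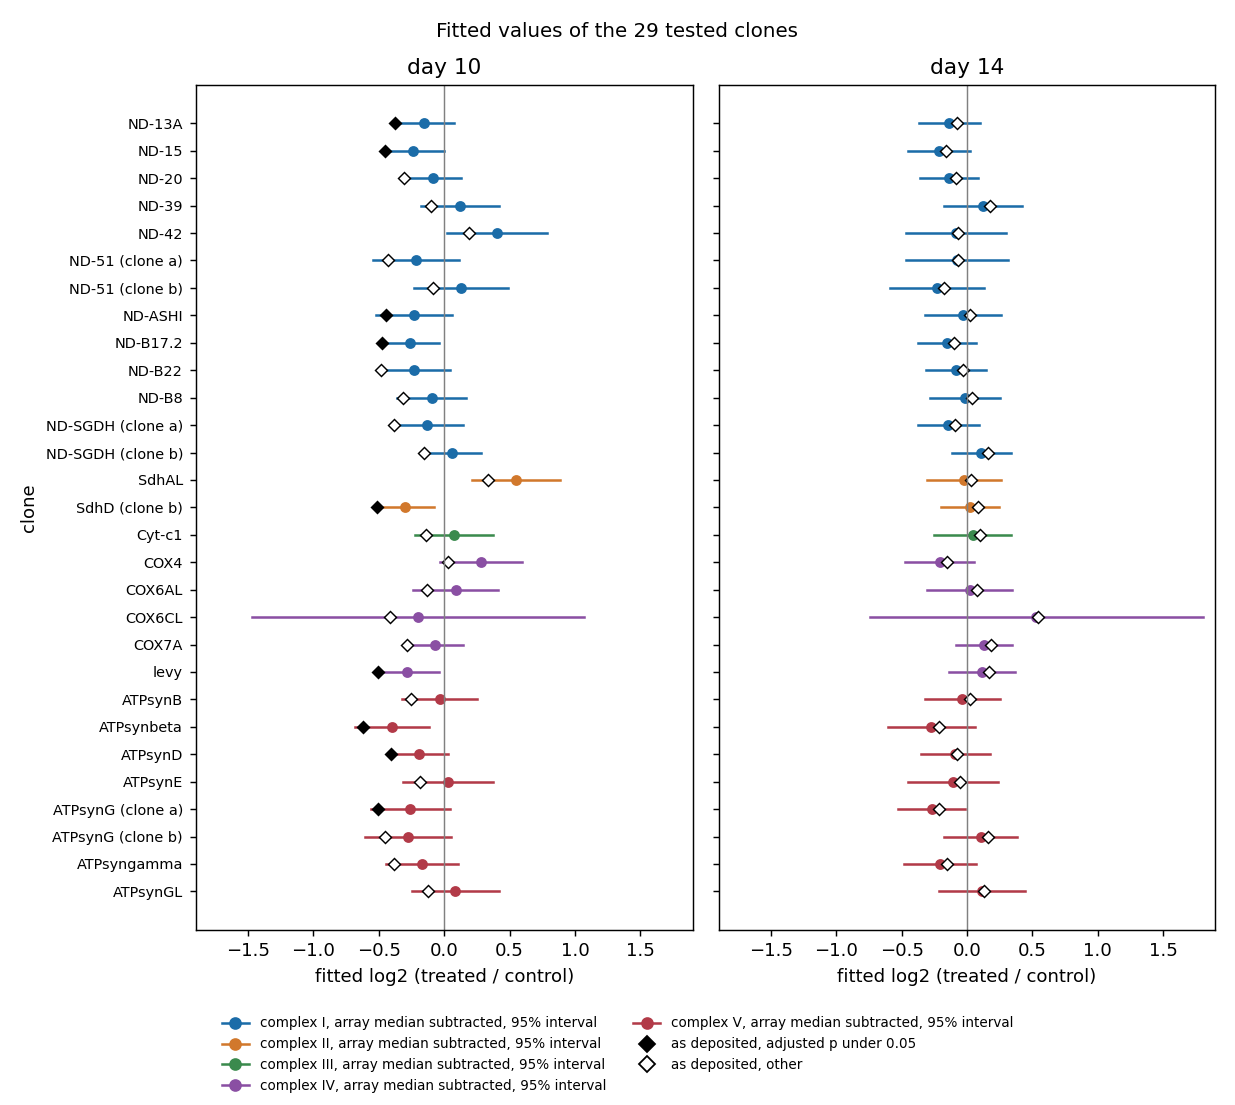
Fitted log2 (treated / control) of the 29 tested clones at day 10 (left) and day 14 (right). Circles with 95% intervals are array-median-centred values coloured by complex. Diamonds are the fit of the turned, uncentred ratios (as deposited), filled in black for the 9 clones called at day 10. The diamonds sit left of the circles at day 10 and close to them at day 14.

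Complex I takes electrons from NADH, and on the turned ratios its clones lay under the array medians by a small amount at both days. The complex's median was -0.15 ± 0.07 at day 10 and -0.09 ± 0.09 at day 14 (SD, n = 4 arrays each), below 0 on all 4 arrays of each day. Against neighbouring clones its array medians were below 0 on all 4 day-10 arrays, but were 0.05, 0.07, -0.14 and -0.09 at day 14. Under the already-turned reading its mean was -0.03 at day 10 and 0.08 at day 14. Of its 13 tested clones, 9 were fitted below 0 at day 10 and 11 at day 14, and 0 were called on the centred ratios. Against neighbouring clones, 10 of the 13 were below 0 at day 10 and 7 at day 14. The 2 clones of ND-51 (orthologous to human NDUFV1) carry the core subunit that binds NADH and flavin. ND-51 clone b had centred ratios of 0.59, 0.56, -0.78 and 0.15 at day 10 and 0.45, -0.28, -0.42 and -0.66 at day 14. Its arrays lie on both sides of 0 at each day, and its fitted values were 0.13 ± 0.16 and -0.23 ± 0.16 (SE; adjusted p = 0.71 and 0.49, limma). It had the lowest fitted value of complex I at day 14 on the turned ratios, and 0.31 under the already-turned reading. ND-20 (NDUFS7), a core iron-sulphur subunit, was fitted at -0.09 and -0.14. ND-75 (NDUFS1), another core iron-sulphur subunit, was measured on 2 arrays of each day and is among the clones outside the test.

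The accessory subunits of complex I hold the 4 clones called lower on the deposited scale. ND-B17.2 (NDUFA12) had centred ratios of -0.26, -0.17, -0.30 and -0.31 at day 10, all 4 below 0 and close together. At day 14 it had -0.32, -0.29, 0.05 and -0.06. Its fitted value was -0.26 ± 0.10 at day 10 (SE; adjusted p = 0.176), -0.48 on the deposited scale (adjusted p = 0.0153), and -0.16 ± 0.10 at day 14. ND-15 (NDUFS5) had -0.34, -0.29, 0.08 and -0.41 at day 10 and -0.19, -0.28, -0.18 and -0.21 at day 14. It was low on 3 of 4 arrays at day 10 and on all 4 at day 14, with nearly equal fitted values of -0.24 ± 0.11 and -0.22 ± 0.11 (adjusted p = 0.232 and 0.306). Without day-10 replicate 4 the day-10 value was -0.15. On the deposited scale it was -0.46 at day 10 (adjusted p = 0.0346).

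ND-13A (NDUFS6), an accessory subunit that binds zinc in mammals, had centred ratios of -0.14, -0.29, -0.14 and -0.06 at day 10 and -0.52, -0.14, -0.01 and 0.13 at day 14. Its day-10 arrays were all below 0 and its day-14 arrays were spread. Against neighbouring clones its sign turned at both days, to 0.07 and 0.06. The fitted values were -0.16 ± 0.11 and -0.13 ± 0.11 (SE; adjusted p = 0.448 and 0.538), and the deposited scale gave -0.37 at day 10 (adjusted p = 0.043). ND-ASHI (NDUFB8), a membrane-arm subunit, had 0.10, -0.19, -0.77 and -0.06 at day 10 and -0.05, 0.35, -0.24 and -0.18 at day 14. Replicate 3 supplied most of its day-10 value of -0.23 ± 0.13 (adjusted p = 0.364), and without that array the value was -0.09. The deposited scale gave -0.45 (adjusted p = 0.0408).

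On the high side of complex I stood ND-42 and ND-39 (NDUFA10 and NDUFA9). ND-42 had the highest fitted value of the complex at day 10, with centred ratios of 1.19, 0.63 and -0.15 on its 3 day-10 arrays and 0.29, -0.24 and -0.77 on its 3 day-14 arrays. The 2 arrays with treated RNA in Cy5 were high and the array with treated RNA in Cy3 was not, and the fitted value, with the dye term, was 0.40 ± 0.17 at day 10 (SE; unadjusted p = 0.0414, adjusted p = 0.217). Without replicate 1 it was 0.24. ND-39 had 0.66, 0.47, -0.60 and -0.04 at day 10 and 0.19, 0.26, 0.07 and -0.02 at day 14. It was again high in replicates 1 and 2 and low in replicate 3 of day 10, with fitted values of 0.12 ± 0.13 at each day. The remaining tested accessory clones, ND-B22 (NDUFB9), ND-B8 (NDUFA2) and both clones of ND-SGDH (NDUFB5), ranged from -0.23 to 0.06 at day 10 and from -0.14 to 0.11 at day 14.

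Complex II oxidises succinate and also works in the tricarboxylic acid cycle. Its array medians averaged -0.16 ± 0.11 at day 10 and 0.00 ± 0.11 at day 14 (SD, n = 4 arrays each). The day-10 mean was 0.05 over the 2 tested clones alone, whose fitted values had opposite signs. It was -0.06 against neighbouring clones and -0.02 under the already-turned reading, so the day-10 position of the complex was not steady. SdhD is a membrane anchor of the complex. SdhD clone b had centred ratios of -0.43, -0.64, -0.04 and -0.08 at day 10 and 0.02, -0.13, 0.08 and 0.13 at day 14. It was below 0 on all 4 day-10 arrays and within 0.13 of 0 on the day-14 arrays. The fitted values were -0.30 ± 0.10 (SE; adjusted p = 0.123) and 0.03 ± 0.10, and the deposited scale gave -0.51 at day 10 (adjusted p = 0.0181). Against neighbouring clones the day-10 value was -0.12 (adjusted p = 0.711). The difference of day 14 minus day 10 was 0.32 ± 0.14 (unadjusted p = 0.0439, adjusted p = 0.455). SdhD clone a, outside the test, had -0.35, -0.12 and -0.26 at day 10 and -0.44 and -0.24 at day 14, so the mean of clone a minus clone b, over arrays with both, was -0.06 at day 10 and -0.45 at day 14.

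SdhAL, a paralog of the flavoprotein subunit SdhA, had the highest fitted value of all 29 clones at day 10 on the turned ratios. With the ratios read as already turned it was 0.33, under ND-42 (0.61), COX4 (0.52), ATPsynE (0.50) and others. Its centred ratios were 0.76, 0.66 and 0.25 on 3 day-10 arrays and -0.27, -0.02, -0.01 and 0.21 on the 4 day-14 arrays. The day-10 arrays all lay above the day-14 arrays. The fitted value was 0.55 ± 0.15 at day 10 (SE, 95% interval 0.22 to 0.89; adjusted p = 0.075) and -0.02 ± 0.13 at day 14, with a difference of day 14 minus day 10 of -0.58 ± 0.19 (adjusted p = 0.411). Its spot lies in the part of the slide that was high on day-10 replicates 1 and 2 (slide position is described after complex V), and against its neighbours its day-10 value was 0.13 (adjusted p = 0.681).

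Complex III passes electrons from quinone to cytochrome c, and only 2 of its clones were measured. Cyt-c1, its haem-carrying cytochrome subunit, had centred ratios of 0.53, 0.17, -0.51 and 0.11 at day 10 and 0.01, 0.10, 0.03 and 0.03 at day 14. The day-10 arrays fell on both sides of 0, while the day-14 arrays lay within 0.10 above it. The fitted values were 0.08 ± 0.13 and 0.04 ± 0.13 (SE; adjusted p = 0.799 and 0.9, limma), with 95% intervals of -0.22 to 0.37 and -0.25 to 0.34. UQCR-6.4, a small accessory subunit, was measured on 3 and 2 arrays and had a mean of 0.01 at day 10 and -0.29 at day 14. Both day-14 arrays carried treated RNA in Cy3, and with the dye term the values were -0.05 and -0.08.

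Complex IV, cytochrome c oxidase, reduces oxygen to water. Its array medians averaged -0.04 ± 0.20 at day 10 and -0.02 ± 0.23 at day 14 (SD, n = 4 arrays each), a spread larger than the value at both days. levy, the fly ortholog of COX6A whose mutants show temperature-induced paralysis and neurodegeneration, had centred ratios of -0.28, -0.56, -0.07 and -0.25 at day 10 and 0.20, 0.28, 0.05 and -0.07 at day 14. All 4 day-10 arrays were below 0 and 3 of the 4 day-14 arrays above it, and the days met at -0.07. The fitted value was -0.29 ± 0.11 at day 10 (SE; adjusted p = 0.18) and 0.11 ± 0.11 at day 14 (adjusted p = 0.628). The difference of day 14 minus day 10 was 0.40 ± 0.16 (95% interval 0.05 to 0.76; unadjusted p = 0.0301, adjusted p = 0.431). The deposited scale gave -0.50 at day 10 (adjusted p = 0.0257). Without day-10 replicate 2 the day-10 value was -0.18. Against neighbouring clones levy was -0.18 at day 10 and -0.19 at day 14, so the contrast between days was not seen there.

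COX4, a nuclear-encoded subunit of the oxidase, had the highest day-10 value of complex IV. Its centred ratios were 0.88, 0.47 and -0.18 on 3 day-10 arrays and -0.10, 0.21, -0.45 and -0.49 on the 4 day-14 arrays. The fitted value was 0.28 ± 0.14 at day 10 (SE; adjusted p = 0.291) and -0.21 ± 0.12 at day 14 (adjusted p = 0.376), and the difference of day 14 minus day 10 was -0.49 ± 0.18 (unadjusted p = 0.0236, adjusted p = 0.413). Without day-10 replicate 1 the day-10 value was 0.15. Against neighbouring clones COX4 was -0.10 at day 10 and -0.02 at day 14, so its drop between days was not seen there. COX7A, a small subunit, was fitted at -0.07 and 0.13. In the test between days, 4 clones had an unadjusted p under 0.05: SdhAL and COX4 were lower at day 14 (6.9% of 29, beside 6.03% of all tested clones), and SdhD clone b and levy were higher (6.9%, beside 4.47%).

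COX6AL and COX6CL are named as relatives of COX6A and COX6C. COX6AL had fitted values of 0.09 ± 0.15 and 0.02 ± 0.15 (SE), with 95% intervals of -0.24 to 0.41 and -0.30 to 0.35. COX6CL had the widest spread of the set, with centred ratios of -1.58, 0.39 and 0.83 on 3 day-10 arrays and 2.03, -0.24 and -0.44 on 3 day-14 arrays. Its neighbouring spots were 3.33 and 0.52 on day-14 replicate 2, before centring. Its fitted values of -0.20 ± 0.55 and 0.53 ± 0.55 changed sign at both days when 1 array was left out (-1.78 to 0.61 at day 10 and -1.05 to 0.90 at day 14).

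Complex V, the ATP synthase, had a low and widely spread day-10 median. Its array medians were -0.01, -0.14, -0.49 and -0.25 at day 10, a mean of -0.22 ± 0.20, and -0.02, 0.00, -0.16 and -0.31 at day 14, a mean of -0.12 ± 0.14 (SD, n = 4 each). The lowest array at each day carried treated RNA in Cy3. Leaving out 1 array moved the mean between -0.29 and -0.13 at day 10 (-0.13 without replicate 3) and between -0.16 and -0.06 at day 14 (-0.06 without replicate 4). Under the already-turned reading it was 0.15 and 0.11. Of its 8 tested clones, 6 were fitted below 0 at each day, and 0 were called on the centred ratios.

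ATPsynbeta, the catalytic subunit, had the lowest fitted value of all 29 clones at both days on the turned ratios. With the ratios read as already turned it was 0.17 and 0.19. Its centred ratios were -0.26, -0.20, -0.90 and -0.25 at day 10 and -0.04, -0.34 and -0.62 on 3 day-14 arrays. All 7 values were below 0, and day-10 replicate 3 stood far under the other 3. The fitted value was -0.40 ± 0.13 at day 10 (SE, 95% interval -0.68 to -0.12; adjusted p = 0.107), a ratio of 0.757, and -0.27 ± 0.15 at day 14 (adjusted p = 0.365). The deposited scale gave -0.62 at day 10 (adjusted p = 0.0136), and centring on neighbouring clones gave -0.46 (adjusted p = 0.0768). Without day-10 replicate 3 the centred day-10 value was -0.27. ATPsyngamma, the central stalk that turns inside the catalytic head, was fitted at -0.17 ± 0.12 and -0.20 ± 0.12.

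ATPsynD, of the peripheral stalk, had centred ratios of -0.13, 0.07, -0.30 and -0.41 at day 10 and 0.03, -0.16 and -0.29 on 3 day-14 arrays. The arrays with treated RNA in Cy3 were the lower ones at both days. The fitted value was -0.19 ± 0.10 at day 10 (SE; adjusted p = 0.315) and -0.09 ± 0.12 at day 14, and the deposited scale gave -0.41 at day 10 (adjusted p = 0.0394). Against neighbouring clones its sign turned at day 10, to 0.05. ATPsynB, also of the peripheral stalk, was fitted at -0.03 and -0.04. ATPsynO, the subunit that joins the stalk to the head (OSCP in mammals), was outside the test and below 0 on both measured day-10 arrays (-0.68 and -0.22) and on all 4 day-14 arrays (-0.33, -0.19, -0.30 and -0.16).

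ATPsynG is the membrane subunit g, which takes part in the pairing of ATP synthases. ATPsynG clone a had centred ratios of -0.47, -0.22 and -0.18 on 3 day-10 arrays and -0.25, -0.51, 0.05 and -0.37 at day 14. It was low on 6 of 7 arrays, and its fitted values were -0.26 ± 0.13 (SE; adjusted p = 0.321) and -0.27 ± 0.11 (unadjusted p = 0.0417, adjusted p = 0.239). The deposited scale gave -0.51 at day 10 (adjusted p = 0.0444). ATPsynG clone b was fitted at -0.28 ± 0.15 at day 10 and 0.10 ± 0.12 at day 14, with opposite signs of the clones at day 14. Against neighbouring clones their day-14 signs were the same, at -0.13 for clone a and -0.15 for clone b. At day 10 only replicates 2 and 4 measured both clones, and clone a was higher by 0.20 there. ATPsynGL, named as its relative, had -0.17, 0.00 and 0.27 at day 10 and -0.02, -0.01 and 0.53 at day 14, on 3 arrays each. It was fitted at 0.09 ± 0.14 and 0.11 ± 0.14 (95% interval at day 10 -0.25 to 0.42), the highest of complex V at both days on the turned ratios, and was at -0.18 and -0.14 under the already-turned reading. ATPsynE, the membrane subunit e, was fitted at 0.03 and -0.11, and ATPsynC, the proton-carrying ring subunit outside the test, had means of -0.24 at day 10 and -0.31 at day 14.

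**Figure D3:**
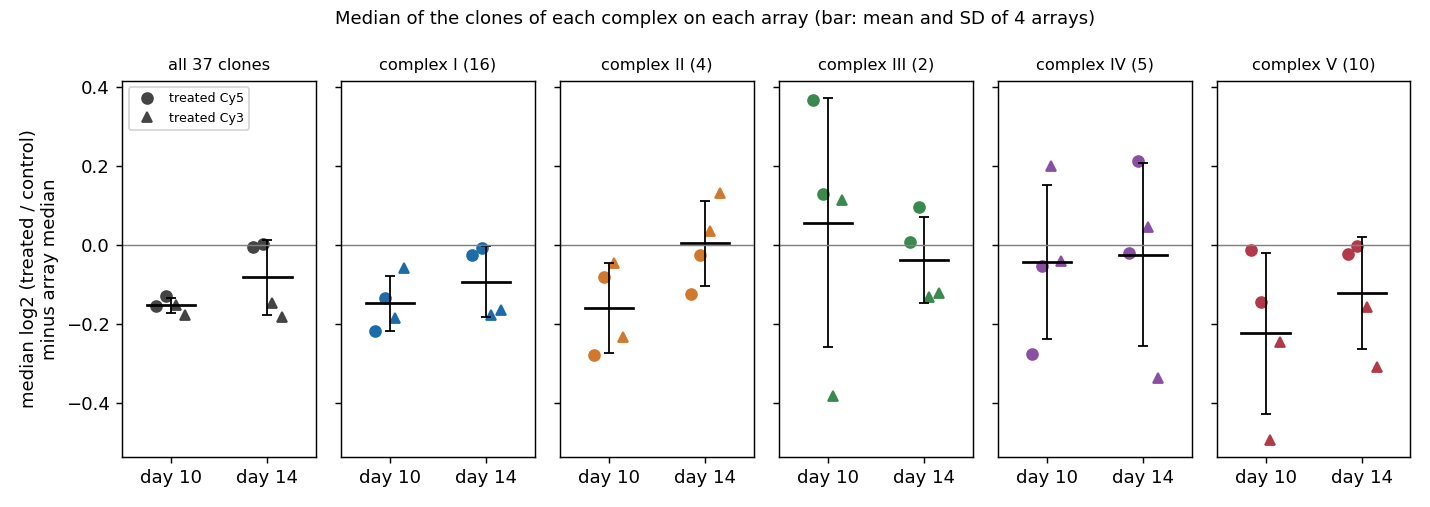
Median centred log2 (treated / control) over the clones of each complex (number in brackets) on each array, with circles for treated RNA in Cy5, triangles for treated RNA in Cy3, and bars for the mean and SD of 4 arrays, at day 10 and day 14. The 4 day-10 medians of all 37 clones lie between -0.18 and -0.13, while complexes III, IV and V spread over a far wider range.

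The steadiness of the direction was also counted. At day 10, 8 of the 29 clones were below 0 on every array that measured them (27.6%, beside 14.6% of all tested clones), and 1, SdhAL, was above 0 on every such array (3.45%, beside 13%). At day 14, 3 clones were below 0 on every measured array (10.3%, beside 16.5%) and 1, Cyt-c1, above (3.45%, beside 16.3%). The share of low clones was thus above that of all clones at day 10 and below it at day 14.

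Position on the slide moved with the day-10 values. The clones of the first 16 of 48 print blocks had medians of 0.32, 0.26, -0.10 and 0.03 on the 4 day-10 arrays, and those of the other 32 blocks -0.09, -0.11, 0.05 and -0.04. Of the 37 clones, 17 lie in the first 16 blocks, among them SdhAL, ND-42, ND-39, COX4, Cyt-c1 and ATPsynE. Over the 4 day-10 arrays these 17 clones averaged -0.07 ± 0.17, beside 0.13 ± 0.20 for all clones of those blocks, and the 20 clones of the other blocks averaged -0.16 ± 0.02, beside -0.05 ± 0.07 (SD, n = 4 arrays each). In both parts of the slide the oxidative phosphorylation clones thus had a lower mean than all clones of that part. Against neighbouring clones, those of the first 16 blocks had day-10 array medians of -0.22, -0.12, -0.20 and -0.12. Those of the other blocks had 0.12, 0.06, -0.40 and -0.08, above 0 with treated RNA in Cy5 and below 0 with treated RNA in Cy3.

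Subtracting the median of the neighbouring clones in place of the array median moved values at both ends. ND-42 was then -0.16 at day 10 (0.40 before), COX4 -0.10 (0.28 before), ND-39 -0.34 (0.12 before) and SdhAL 0.13 (0.55 before). Among the low clones, ND-13A was 0.07 (-0.16 before), ATPsynD 0.05 (-0.19 before), SdhD clone b -0.12 (-0.30 before) and levy -0.18 (-0.29 before). The median fitted value of the tested clones in the other 32 blocks was -0.07, beside -0.17 with the array median subtracted, and in the first 16 blocks -0.16, beside -0.10. The median of the 28 clones that had enough neighbours was -0.13, with 20 of 28 below 0, beside -0.02 over all clones. At day 10, 0 of these 28 were called in either direction, where 1.32% of 4255 clones were called lower and 0.094% higher. Centring on each print block called 1 of the 29 clones lower, ND-B17.2 at -0.48 (adjusted p = 0.0203; 3.45%, beside 2.34% of all tested clones), and 0 higher, beside 0.219%.

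**Figure D4:**
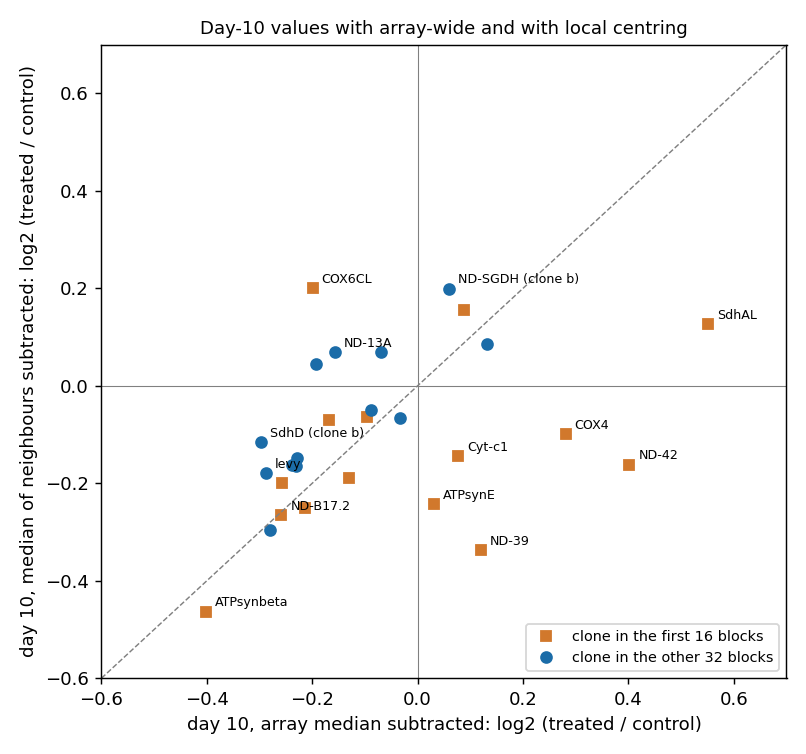
Fitted day-10 log2 (treated / control) of 28 clones with the array median subtracted (horizontal axis) and with the median of neighbouring clones subtracted (vertical axis), with squares for clones in the first 16 print blocks, circles for the other 32, and equality on the dashed line. SdhAL, ND-42, COX4, ND-39, Cyt-c1 and ATPsynE lie under the line, and ATPsynbeta is at -0.40 and -0.46.

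The 4 genes with 2 measured clones each had 1 clone in each part of the slide. Over the arrays that measured both, the clones differed by a mean of 0.41 for ND-51, 0.24 for ND-SGDH, 0.25 for SdhD and 0.33 for ATPsynG. Their signs matched on 4 of 7, 2 of 7, 3 of 5 and 4 of 6 arrays. These are mean absolute differences on single arrays, so they are not on the scale of the fitted values, which average several arrays. At day 10 the fitted values of clones a and b were -0.21 and 0.13 for ND-51, -0.13 and 0.06 for ND-SGDH, and -0.26 and -0.28 for ATPsynG. At day 14 they were -0.08 and -0.23, -0.14 and 0.11, and -0.27 and 0.10. The 2 spots of a clone differed by a median of 0.16 for the oxidative phosphorylation clones, beside 0.18 for all clones.

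The 8 clones outside the test were given the same fit with the requirement lowered to 2 arrays of each day. ND-19 (NDUFA8) had centred ratios of -1.26 and -0.76 on its 2 day-10 arrays, both with treated RNA in Cy5, and -0.18 and -0.16 on its 2 day-14 arrays, both with treated RNA in Cy3. Its fitted day-10 value of -1.01 ± 0.18 (SE; adjusted p = 0.0823) did not pass, day and dye cannot be told apart in it, and its spots on day-10 replicate 1 were -2.65 and -0.84 before centring. ND-13B (NDUFA5) averaged 0.08 and 0.06, and SdhC, the other membrane anchor of complex II, -0.17 and 0.16. None of the 8 was called at either day. A further 12 annotated clones, among them ND-18, ND-B18 and SdhB, were measured on fewer than 2 arrays of day 14 and are not described.

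Other mitochondrial genes were read from lists of the same fit. Of the tricarboxylic acid cycle, 5 clones were tested, with a median of -0.24 at day 10 and -0.32 at day 14 and 0 called on the centred ratios. On the deposited scale 3 of the 5 were called lower at day 10, where 13.6% of all tested clones were. They were ScsbetaA and Scsalpha1 (subunits of succinyl-CoA synthetase) at -0.82 and -0.46 and Ogdh (oxoglutarate dehydrogenase) at -0.56. Against neighbouring clones this list's median was -0.06 at day 10 and -0.14 at day 14. At day 10 ScsbetaA was then -0.51, Scsalpha1 -0.23 and Ogdh -0.06 (adjusted p = 0.368, 0.378 and 0.886, limma). Of the carriers and channels of the mitochondrial membranes, 1 of 6 was called lower on the centred ratios at day 10, where 2.19% of all tested clones were. It was Mpc1 (a subunit of the mitochondrial pyruvate carrier) at -0.56 ± 0.12 (SE, adjusted p = 0.045, limma), while its day-14 value was -0.08. Against its neighbours Mpc1 was -0.46 at day 10 and was not called (adjusted p = 0.154). The list's median was -0.17. Mpcp2, a phosphate carrier, was also called lower on the deposited scale, at -0.54. The lists of assembly factors (6 tested, median -0.02), mitochondrial DNA upkeep and transcription (2 tested, -0.05) and mitochondrial antioxidants (3 tested, 0.05) had 0 called on the centred ratios, and Phb2 (a prohibitin) at -0.52 and Prx3 (a mitochondrial peroxiredoxin) at -0.48 were called lower on the deposited scale. None of the genes listed as other electron donors to quinone was tested.

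Markers of the cell types of the head were read beside these values. Fat body markers were low at day 10, with 4 of 8 clones called lower (Lsp2, Adh, Obp99b and a clone of apolpp) where 2.19% of all tested clones were, 7 of 8 below 0, and a median of -0.73 at day 10 and -0.24 at day 14. With local centring 3 clones of the list were called lower (Lsp2, Obp99b and the other clone of apolpp), Adh was not (adjusted p = 0.0714), and the first apolpp clone had too few neighbours. The list's array medians were -0.22, -0.10, -0.99 and -0.56 at day 10, lowest on replicate 3. Replicate 3 was also the lowest day-10 array of complex V and of the photoreceptor (-0.51), neuronal (-0.46) and muscle (-0.21) lists. The glial list was lowest on replicate 2 (-0.66, beside -0.26 on replicate 3). A low replicate 3 was thus not particular to fat body. Of 5 glial clones, 4 were below 0 and 1 was called lower (beside 2.19% of all tested clones), Tret1-1, a trehalose transporter, at -0.71. Muscle contractile (9 clones), photoreceptor (9 clones) and neuronal markers (3 clones) had medians of -0.03, -0.03 and 0.14 at day 10, with 0 called. These are ratios, so the level of each list in treated and in control heads is not known, and the part of fat body or glial RNA in the oxidative phosphorylation values was not tested.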

How the data were processed

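RNA from pooled fly heads was compared on 8 two-colour arrays. Per the labels' protocols, the authors scanned with a GenePix 4000A, quantified with GenePix Pro 6.0 and applied ratio-based normalization in Acuity 4.0, with filters on intensity (100), background (2 times), saturation (3%), regression R2 (0.6) and signal-to-noise ratio (3). The deposited values are 1 log2 ratio per spot, with no intensities, so signal over background is unknown. Base 2 was read from the values, and the direction is not given.

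From these, dye-swapped arrays were turned, spots averaged per clone and array medians subtracted. Genes were renamed by gene identifier (7447 clones; 111 kept the file's symbol). limma 3.58.1 in R 4.3.3 fitted 1 coefficient per day and a dye term to clones on at least 3 arrays of each day; simulated data with known changes were used to test the fit. Local centring used clones within 2 rows and 3 clones of the same block (at least 5). Arrays were given in full for clones called in either scale and for the lowest and highest of each complex and day. The members and lists were chosen with earlier results of these data known. Alternatives are in the closing section. The number of arrays limits precision.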

Additional observations from a re-analysis of the deposited data

Results flagged for a closer look

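ATPsynbeta on day-10 replicate 3 stood apart from the other day-10 arrays, at a centred ratio of -0.90 beside -0.26, -0.20 and -0.25, with a gap that took 0.926 of the range, above Dixon's critical value. Such a gap was looked for in 58 groups of 4 arrays, and chance gives about 1 in 20. ND-75 was below 0 on both measured day-10 arrays (-0.56 and -0.21) and above 0 on both measured day-14 arrays (0.65 and 0.04), a difference of means of 0.74, day 14 minus day 10. Its 2 spots differed by a median of 0.665, and were -0.64 and -1.46 on day-10 replicate 1 before centring. Both day-10 arrays carried treated RNA in Cy5, while the day-14 arrays, replicates 2 and 3, carried it in Cy5 and Cy3. SdhC was below 0 on 3 day-10 arrays (-0.21, -0.08 and -0.23) and above 0 on 2 day-14 arrays (0.19 and 0.12), a difference of means of 0.33. Both clones were too thinly measured for the test of the report. In the fit that admits clones on 2 arrays of each day, the difference between days was 1.04 ± 0.31 for ND-75 and 0.34 ± 0.19 for SdhC (SE; adjusted p = 0.41 and 0.538, limma).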

How the results depend on the processing

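The 0 calls among the 29 oxidative phosphorylation clones became 9 at day 10 as deposited, beside 638 of all 4563 tested clones. With print-block centring they became 1 at day 10, beside 117 of 4563. With each day fitted alone they became 1 at day 14 (COX6CL), beside 531 of 4563. COX6CL had centred ratios of 2.03, -0.24 and -0.44 on its 3 day-14 arrays. The day-10 median of -0.15 was -0.37 as deposited, -0.12 with print-block centring, -0.11 over tested clones and 0.011 with ratios read as already turned, which put the day-14 median at 0.0816. The replicate block left 0 of them called in each contrast. Over all clones it gave 55 day-10 calls, beside 138 without it. Same-numbered arrays of the 2 days correlated at 0.10 to 0.26 in deviations, with 1 pair under 0.1, and 4 of 4 day-10 but only 2 of 4 day-14 arrays matched best their own number, so the numbers were not taken as pairs. All-clone calls at day 10 were 638 as deposited, 60 with local centring, 1 already turned, 57 without dye term, 54 with 2 arrays, 2 with day 10 alone, 67 with array weights, and 3 to 143 with 1 array left out. At day 14 they were 531 with day 14 alone and 243 with array weights, otherwise 0. Leaving out 1 array called 0 oxidative phosphorylation clones and kept their median at -0.16 to -0.15 at day 10 and -0.11 to -0.05 at day 14. The cause of these changes was not tested.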
